A study of Mus musculus with 9 samples.

Results

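The genes described here are 10 genes of cell proliferation and mitosis, measured by RNA sequencing of mouse aorta. They are Cdk1, Ccnb1, Ccnb2, Top2a and Birc5, which act in the entry into and passage through mitosis, Mcm5, Pcna, Rrm2 and Tipin, which act in DNA replication, and Mki67, a general marker of cycling cells. Each was found by its gene symbol in the 9 deposited tables, 10 genes of 17179 symbols in all. All 10 were listed in at least 1 library and were tested, and 8 of 10 were listed in every library. Values are FPKM, fragments per kilobase of transcript scaled to the mapped fragments of a library, so levels can be compared between genes. A gene absent from a library's table was set to 0.

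All mice were C57BL/6J. The libraries comprised 2 from mice given TPA with BAPN, 2 from mice given T-5224 with BAPN, 1 from mice given coQ10 with BAPN, 2 from mice given BAPN and 2 from normal mice, which drank distilled water. BAPN (β-aminopropionitrile, which blocks lysyl oxidase and so the cross-linking of elastin and collagen) was dosed at 1 g/kg/day and causes aortic dissection in mice. TPA, a phorbol ester used to activate AP-1, a transcription factor, was injected intraperitoneally at 50 ng/g/day from day 1. T-5224, an AP-1 inhibitor, was given by gavage at 5 mg/kg/day, and coQ10, an electron carrier of the respiratory chain, by gavage at 10 mg/kg/day, both from day 7 or 14. Mice given TPA, T-5224 or coQ10 with BAPN were killed on day 28. No day is given for the mice with BAPN alone or the normal mice. T-5224 replicate 1 is titled as 2 weeks and T-5224 replicate 2 as 3 weeks. The protocol names 12 mice per treatment, but which mice gave each library, whether replicates came from separate animals, and the age and sex of the mice are not stated in the labels. P-values therefore measure only the spread between these samples, which may be technical.

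A cell that leaves rest passes through G1, copies its DNA in S phase and divides in mitosis. The retinoblastoma family of pocket proteins holds E2F-driven genes silent until cyclin D and cyclin E kinases inactivate it, and E2F then drives replication genes such as Mcm5, Pcna and Rrm2. Later in the cycle the B-type cyclins, their kinase Cdk1, topoisomerase Top2a and the chromosomal passenger protein Birc5 (survivin) accumulate. In resting cells the DREAM complex, which contains the pocket proteins p107 or p130, represses both gene groups, and it reaches mitosis genes through a promoter element called the cell cycle genes homology region (CHR). Smooth muscle cells of the healthy adult aorta divide rarely. Lymphocytes, bone marrow cells and erythroid precursors divide often, and mature red blood cells do not divide at all.

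The promoters of the mitosis genes are shown for the letters of CHR and CCAAT elements, which are known from promoters of this class. RefSeq promoters (GRCm38.p6, from 250 bases before to 50 after the start) were found for 9 of the 10 genes, all but Tipin. The stretches, for the 4 mitosis genes with both kinds of letters near the start, run from 120 bases before the start to 20 after it, 5′ to 3′ on the gene's strand, which is the minus strand for all 4 genes. Capitals mark the CHR letters (TTTGAA or TTTAAA) and the CCAAT box, which binds NF-Y, on either strand, so that ATTGG and TTCAAA are the same letters read on the other strand. The stretches lie at chr10:69352893-69353032 for Cdk1, chr13:100786467-100786606 for Ccnb1, chr9:70421535-70421674 for Ccnb2 and chr11:99024170-99024309 for Top2a.
Cdk1: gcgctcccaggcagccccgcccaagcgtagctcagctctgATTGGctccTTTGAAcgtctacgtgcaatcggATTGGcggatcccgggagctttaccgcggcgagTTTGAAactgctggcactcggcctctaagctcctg
Ccnb1: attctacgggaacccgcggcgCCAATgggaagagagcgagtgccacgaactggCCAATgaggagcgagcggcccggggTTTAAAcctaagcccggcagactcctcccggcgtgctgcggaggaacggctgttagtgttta
Ccnb2: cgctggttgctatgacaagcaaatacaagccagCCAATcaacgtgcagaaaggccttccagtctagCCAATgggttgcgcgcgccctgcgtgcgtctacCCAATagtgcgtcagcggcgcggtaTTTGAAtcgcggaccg
Top2a: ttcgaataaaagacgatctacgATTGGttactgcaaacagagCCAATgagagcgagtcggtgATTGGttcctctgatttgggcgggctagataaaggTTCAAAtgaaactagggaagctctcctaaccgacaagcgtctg

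Within the whole promoter window, CHR letters were present in 8 of the 9 promoters, all but that of Pcna, against 27.6% of 32851 RefSeq promoters of the same length. CCAAT was present in 8 of 9, all but that of Birc5, whose CHR letters lie at -220 to -215 from the start, against 37.4% of all promoters. The letters of an E2F site (TTTCGCGC, TTTGGCGC, TTTCCCGC or TTTGCCGC, on either strand) were present in 2 of 9, those of Mcm5 and Cdk1, against 2.27% of all promoters. In Mcm5 2 such sites overlapped on opposite strands. A letter match is a description and does not show that a factor binds there.

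The libraries differed in much besides these genes. Of summed FPKM, haemoglobin transcripts held 69.4% and 69.2% with TPA, 40.8% and 11.2% with T-5224, 5.40% with coQ10, 68.9% and 74.1% with BAPN alone and 1.25% and 1.03% in normal aorta. Smooth muscle genes were expressed everywhere, with Acta2 (smooth muscle actin) between 246 and 9310 FPKM, so smooth muscle RNA was present in each library. Its level differed widely. The 9 smooth muscle markers summed to 2085 and 774 FPKM with BAPN alone, against 6866 and 19036 FPKM in normal aorta. All 9 were lower in BAPN against normal, with a median log2 difference of -3.63, against -0.51 over all tested genes. The part of this shift in the differences of the 10 genes was not tested. Markers of cardiac muscle and airway epithelium were high in normal replicate 1, both TPA libraries and T-5224 replicate 2 and low in the other 5. Of 4 Y-linked genes, none was listed in normal replicate 1 while the other 8 libraries listed all 4. Ranked over 12649 genes, a gene's deviation from its mean over the libraries correlated with its transcript length at between -0.40 in T-5224 replicate 2 and 0.42 in normal replicate 2. Depth is unknown, since FPKM carry no counts. In bulk tissue, fewer dividing cells and less RNA per dividing cell cannot be told apart.

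**Figure D1:**
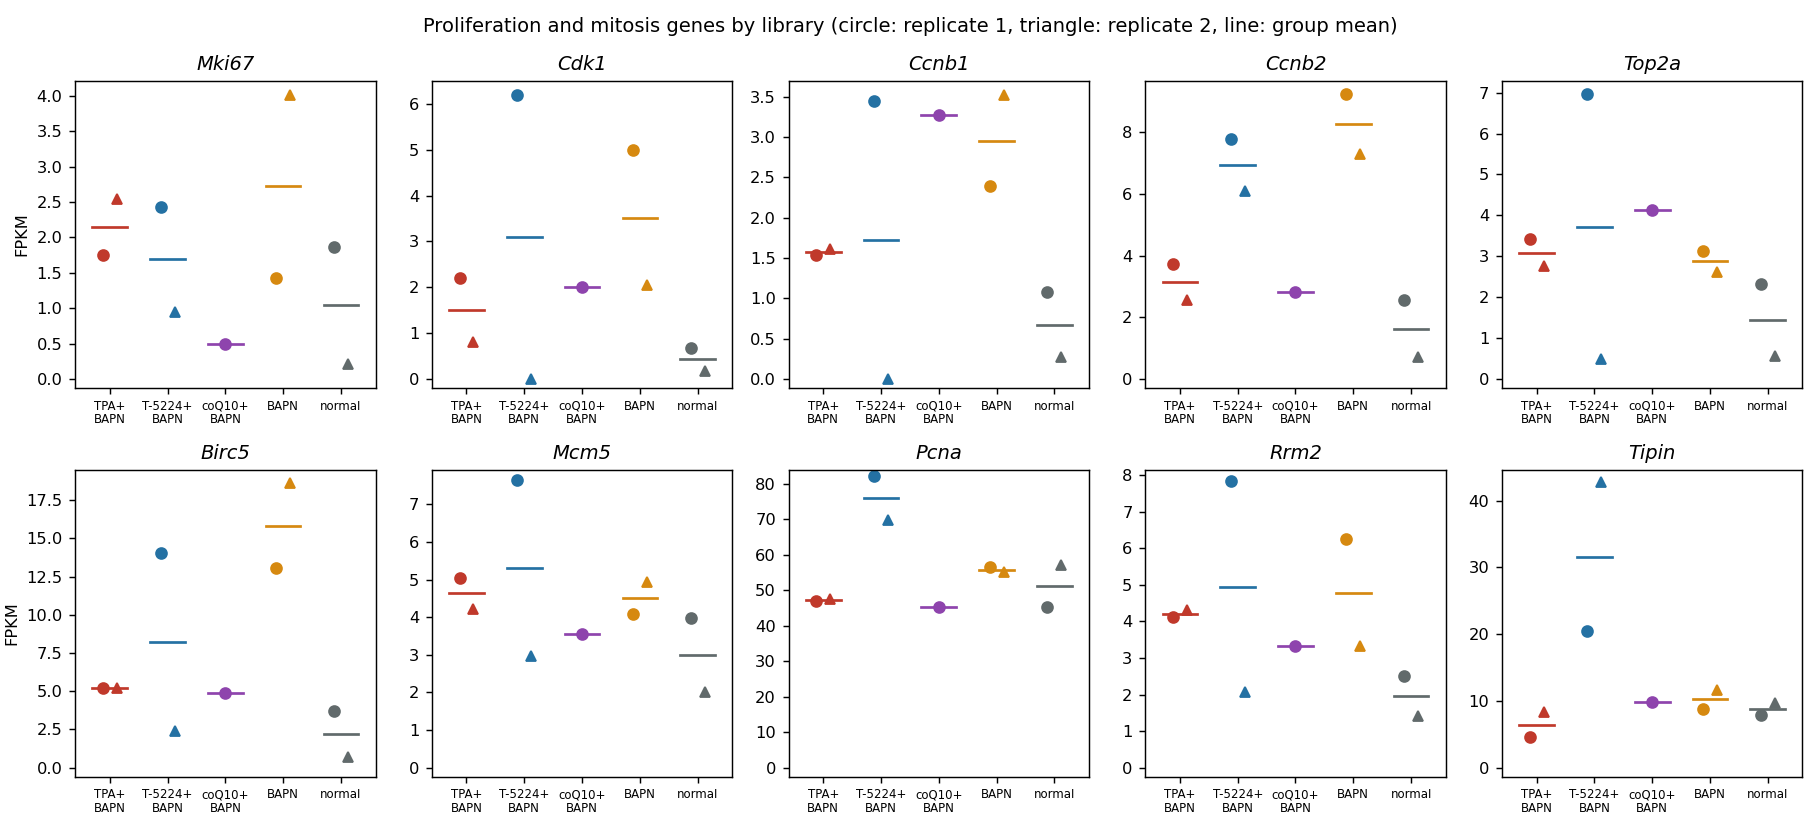
FPKM of each of the 10 genes (vertical axis, linear, a scale for each gene) by treatment group; circles are replicate 1, triangles replicate 2 and lines group means. T-5224 replicate 1 is highest for 5 genes, and normal replicate 2 is lowest for 5.

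Levels spanned a wide range between the genes. Pcna, the clamp that holds the DNA polymerase on its template, was the most abundant in every library, with 45.2 to 82.1 FPKM. Tipin, a partner of Timeless at the replication fork, followed with a median of 9.66 FPKM. The mitosis genes did not exceed 18.6 FPKM, and Cdk1 ranged between not listed in T-5224 replicate 2 and 6.19 FPKM in T-5224 replicate 1. Across the 9 libraries Birc5 followed the mean of the other 9 genes most closely (Pearson r = 0.93 on the log2 scale, as a description). Pcna followed it weakly (r = 0.32) and Tipin not at all (r = -0.06). These correlations are over 9 libraries that share groups and preparation.

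BAPN against normal aorta asks what dissection-inducing treatment did to these genes. On the deposited scale the 5 mitosis genes were higher in both BAPN libraries than in both normal libraries. None passed the test over all genes. After each library was rescaled to the same sum, the groups overlapped for Cdk1, Ccnb1, Ccnb2 and Top2a and stayed apart for Birc5. Cdk1, the kinase that starts mitosis, had 5.00 and 2.04 FPKM in BAPN libraries, against 0.67 and 0.18 FPKM in normal libraries. Ccnb1, its cyclin, had 2.39 and 3.52 FPKM in BAPN libraries, against 1.08 and 0.27 FPKM in normal libraries. Ccnb2, another B-type cyclin, had 9.24 and 7.31 FPKM in BAPN libraries, against 2.57 and 0.70 FPKM in normal libraries. As deposited, the groups did not overlap for any of these 3 genes. Birc5, which guides chromosome segregation and inhibits apoptosis, had 13.1 and 18.6 FPKM in BAPN libraries, against 3.68 and 0.71 FPKM in normal libraries. Its mean was 15.8 ± 3.92 FPKM in BAPN libraries and 2.19 ± 2.10 FPKM in normal libraries (SD, n = 2 each). Top2a, which untangles DNA before segregation, had 3.13 and 2.62 FPKM in BAPN libraries, against 2.32 and 0.55 FPKM in normal libraries, so that the groups came close to touching.

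On the scale of log2(FPKM + 1), Birc5 was 2.55 higher in BAPN libraries (SE 0.76, 95% interval 0.74 to 4.36, limma adjusted p = 0.0825) and Ccnb2 was 1.90 higher (SE 0.43, 95% interval 0.89 to 2.92, limma adjusted p = 0.0552). Cdk1 differed by 1.61 (SE 0.92, limma adjusted p = 0.266) and Ccnb1 by 1.27 (SE 0.71, limma adjusted p = 0.255). Top2a differed by 0.77 (SE 0.78, limma adjusted p = 0.517). This scale understates the change of low genes.

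The replication genes differed less. Rrm2, the small subunit of ribonucleotide reductase, had 6.25 and 3.32 FPKM in BAPN libraries, against 2.51 and 1.41 FPKM in normal libraries, a difference of 0.94 (SE 0.56, limma adjusted p = 0.278). Mcm5, a subunit of the replicative helicase, had 4.08 and 4.93 FPKM in BAPN libraries, against 3.98 and 2.01 FPKM in normal libraries. Both had groups that did not overlap on the deposited scale, though Mcm5 by a narrow margin. Pcna had 56.5 and 55.2 FPKM in BAPN libraries, against 45.4 and 57.3 FPKM in normal libraries, and Tipin had 8.76 and 11.7 FPKM in BAPN libraries, against 7.91 and 9.66 FPKM in normal libraries. For these last genes the groups overlapped. Mki67, the antigen used to stain cycling cells, had 1.42 and 4.02 FPKM in BAPN libraries, against 1.87 and 0.21 FPKM in normal libraries, and here too the groups overlapped.

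Of the 10 genes 0 passed limma at an adjusted p of 0.05, and 2 (Ccnb2 and Birc5) had an unadjusted p under 0.05. Over all 12997 tested genes 3.26% passed, 0.9% in the higher direction, and 32.4% had an unadjusted p under 0.05. In 7 of the 10 genes both BAPN libraries were above both normal libraries on the deposited scale. Of all tested genes 15% showed that pattern, while 51.1% were lower in both. After each library was rescaled to the same sum, Birc5 alone of the 10 genes kept the pattern. The share of all genes was not counted on that scale. All 10 differences were positive on the deposited scale, but 5 (Top2a, Mcm5, Pcna, Rrm2 and Tipin) were negative when each library was rescaled to the same sum (TPM), and the median of the 10 was then -0.14, against 0.92 as deposited. That rescaling moved the median of all tested genes to -1.92, against -0.51 as deposited. Relative to those medians the 10 genes stood 1.78 higher after rescaling and 1.44 higher as deposited. Ccnb2 was called after median-of-ratios scaling (2.35, limma adjusted p = 0.0384) but not after TPM (0.69, limma adjusted p = 0.215) or with haemoglobin left out (2.30, limma adjusted p = 0.129). Birc5 was called under none of these scalings and differed by 1.26 after TPM (limma adjusted p = 0.195).

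Transcript length moved with this comparison, since long transcripts were relatively higher in the normal libraries. Genes within 10% of Cdk1's transcript length of 4375 bases had a median difference of -0.68, and those within 10% of Ccnb2's length of 1531 bases had a median of -0.21. All 10 genes stood above the median of genes of like length. With 2 libraries a group, an exact two-sided permutation test cannot go below p = 0.333. Leaving out either T-5224 library, whose group shares the estimate of spread, left the differences at 1.90 for Ccnb2 and 2.55 for Birc5. Without any 1 of the other 7 libraries the difference lay between 1.37 and 2.44 for Ccnb2 and between 1.83 and 3.28 for Birc5. Which genes passed, among the 10 and over all tested genes, changed with the library left out, so no calls are given for these fits. Leaving out normal replicate 1 moved the median of the 10 genes to 1.42, and leaving out normal replicate 2 moved it to 0.50. With normal replicate 1 and T-5224 replicate 2 both left out, a choice made after the values were seen, that median was also 1.42. The median over all tested genes was then -0.32.

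**Figure D2:**
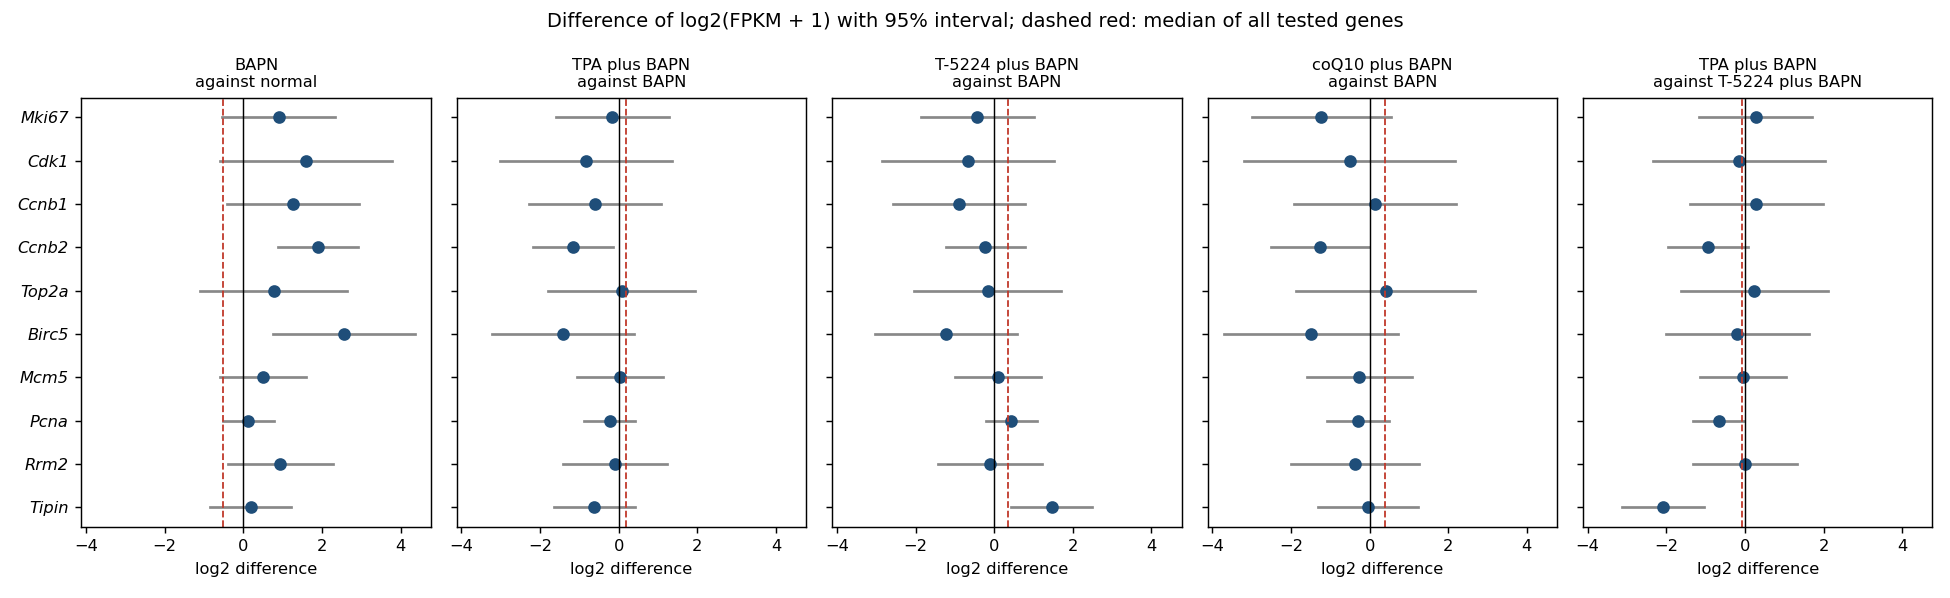
Difference in log2(FPKM + 1) of each of the 10 genes in the 5 comparisons, with 95% intervals from limma; points right of 0 are higher in the first group of the panel title, and dashed red lines are the median of all tested genes. In BAPN against normal the intervals of Ccnb2 and Birc5 lie above 0, and none of the 10 genes passed adjustment over all tested genes.

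The blood and lymphocyte content of the libraries was set beside the 10 genes list by list. The mean of the 10 genes on the log2 scale was 2.45 and 2.40 with TPA, 3.39 and 2.13 with T-5224, 2.44 with coQ10, 2.92 and 2.95 with BAPN alone and 2.19 and 1.52 in normal aorta. The spread between libraries of a group, pooled, was 0.50 (SD). Red blood cell markers averaged 11.7 and 11.4 with TPA and 11.4 and 11.5 with BAPN alone. They averaged 10.6 and 8.29 with T-5224, 7.49 with coQ10 and 5.91 and 5.55 in normal aorta. In BAPN against normal all 7 tested red blood cell markers were higher and 5 passed limma, where 0.9% of all tested genes passed in the higher direction. Klf1, the erythroid master regulator, stayed at or under 0.11 FPKM in every library.

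T cell markers averaged 3.36 and 2.83 with TPA, and B cell markers 3.80 and 1.70. T cell markers averaged 1.75 in BAPN replicate 1 and 4.29 in BAPN replicate 2, and B cell markers averaged 2.56 and 5.21 in the same libraries. The mean of the 10 genes was 2.92 and 2.95 in them, and Cdk1 was the higher in replicate 1 while Mki67 was the higher in replicate 2. In T-5224 replicate 1, where the mean of the 10 genes was the highest of the 9 libraries, T cell markers averaged 0.90 and B cell markers 1.11, lower than in both BAPN libraries. T cell markers averaged 1.41 and 0.51 in the normal libraries, and B cell markers 1.84 and 0.23. All 12 T cell markers tested in BAPN against normal were higher, and 1 passed. It was Lat, an adaptor of the T cell receptor, which differed by 3.42 (limma adjusted p = 0.0499). All 8 tested B cell markers were higher and 0 passed. The summed level of the 12 T cell markers was 128 and 87.8 FPKM with TPA, 12.7 and 27.5 FPKM with T-5224, 9.75 FPKM with coQ10, 37.3 and 275 FPKM with BAPN alone and 26.5 and 6.46 FPKM in normal aorta. Of these markers 3 were at 0 in T-5224 replicate 2 and 2 in the coQ10 library, and 0 in the other libraries. Of 9 B cell markers 4 were at 0 in T-5224 replicate 2, 2 in the coQ10 library and 1 in normal replicate 2. Thymocyte markers averaged 0.38 and 0.88 with TPA and at most 0.29 in the other libraries. B cell precursor markers averaged 1.15 and 0.90 with TPA, 0.18 and 0.48 with T-5224, 0.00 with coQ10, 0.59 and 1.15 with BAPN alone and 1.37 and 0.00 in normal aorta. Erythroid precursor markers averaged 1.29 and 0.84 with TPA, 1.09 and 0.18 with T-5224, 0.40 with coQ10, 0.73 and 0.81 with BAPN alone and 0.04 and 0.13 in normal aorta. Platelet markers averaged 5.67 and 4.02 with TPA, 5.76 and 2.02 with T-5224, 2.55 with coQ10, 5.46 and 5.74 with BAPN alone and 2.57 and 3.44 in normal aorta, so that, like the mean of the 10 genes, they were highest in T-5224 replicate 1 and higher in both BAPN libraries than in both normal libraries. Of 7 platelet markers 6 were higher in BAPN against normal and 1 passed limma, and 1 was at 0, in T-5224 replicate 2. The part of blood cells in the differences was not tested.

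**Figure D3:**
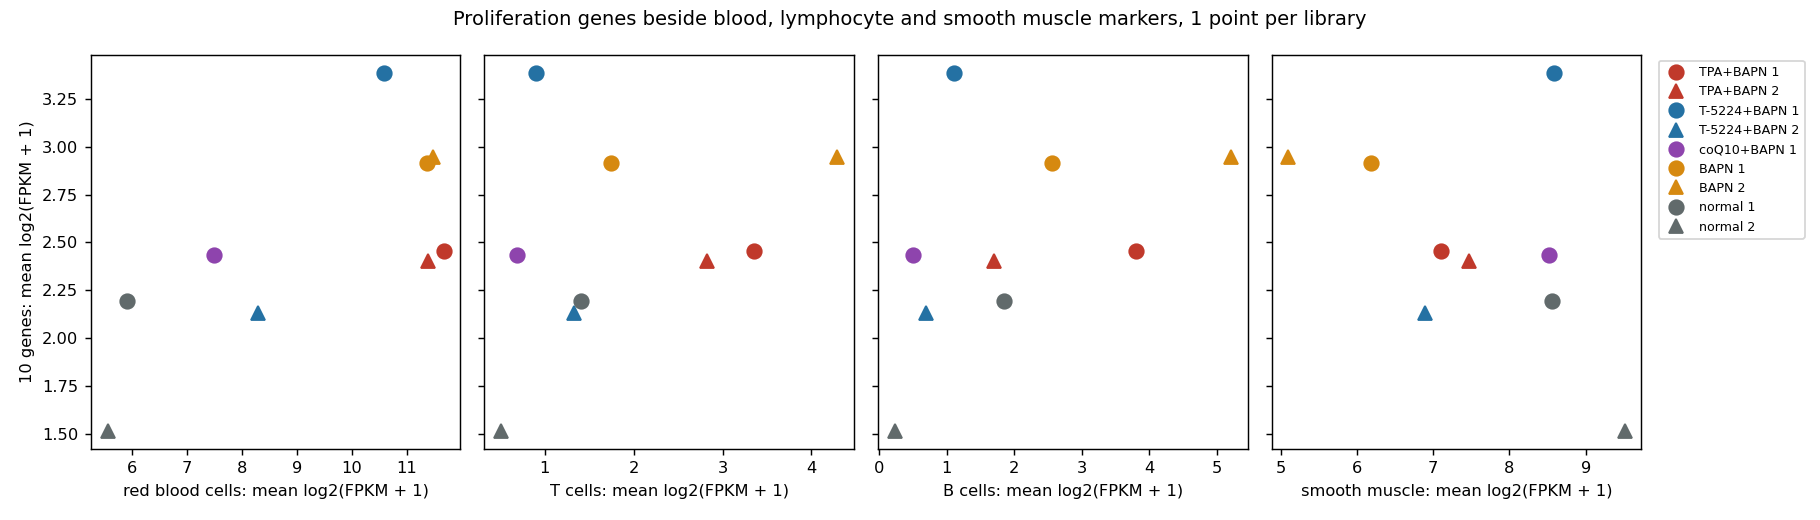
Mean log2(FPKM + 1) of the 10 genes (vertical axis) against that of red blood cell, T cell, B cell and smooth muscle markers (horizontal axes), 1 point per library. T-5224 replicate 1 has the highest mean of the 10 genes (3.39) with T cell markers at 0.90, while BAPN replicate 2 has T cell markers at 4.29 and a mean of 2.95.

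TPA with BAPN was set against BAPN alone, which gave the libraries that BAPN against normal also used. Birc5 had 5.24 and 5.23 FPKM in TPA libraries, against 13.1 and 18.6 FPKM in BAPN libraries. Ccnb2 had 3.73 and 2.55 FPKM in TPA libraries, against 9.24 and 7.31 FPKM in BAPN libraries. Ccnb1 had 1.54 and 1.61 FPKM in TPA libraries, against 2.39 and 3.52 FPKM in BAPN libraries. None of these groups overlapped. On the log2 scale Birc5 was 1.41 lower in TPA libraries (-1.41, SE 0.76, limma adjusted p = 0.538) and Ccnb2 differed by -1.17 (95% interval -2.18 to -0.16, limma adjusted p = 0.459). Cdk1 had 2.21 and 0.81 FPKM in TPA libraries, against 5.00 and 2.04 FPKM in BAPN libraries, and overlapped. Top2a, Mcm5, Rrm2 and Mki67 differed by between -0.16 and 0.07.

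Of the 10 genes 0 passed limma in this comparison and 1, Ccnb2, had an unadjusted p under 0.05. Over all genes 0.0385% passed and 10.2% had an unadjusted p under 0.05. The groups did not overlap, with TPA lower, for 5 of 10 genes (Ccnb1, Ccnb2, Birc5, Pcna and Tipin), a pattern shown by 21.2% of all tested genes, while 41.4% were higher in both TPA libraries. The median of the 10 was -0.42, against 0.18 over all tested genes. Fitted on the TPA and BAPN libraries alone, Birc5 passed with limma adjusted p = 0.0399, and 972 of all genes then passed, against 5 in the fit of all libraries.

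T-5224 with BAPN gave libraries that differed widely from each other. T-5224 replicate 1 held the highest value of 5 of the 10 genes, and replicate 2 held the lowest value of 3. Cdk1 had 6.19 FPKM in replicate 1 and was not listed in replicate 2, and Ccnb1 had 3.45 FPKM in replicate 1 and was not listed in replicate 2. T-5224 replicate 2 listed the fewest symbols, 13982 against 14682 to 16204 in the other libraries, so a gene not listed there need not be absent. Its summed FPKM without haemoglobin was 973532, against 447356 to 582616 in the other libraries. Top2a had 6.96 and 0.49 FPKM in the T-5224 libraries, against 3.13 and 2.62 FPKM in BAPN libraries. Birc5 had 14.0 and 2.38 FPKM in T-5224 libraries, against 13.1 and 18.6 FPKM in BAPN libraries, and Rrm2 had 7.83 and 2.06 FPKM, against 6.25 and 3.32 FPKM. In these genes the BAPN libraries lay between the T-5224 libraries or overlapped them. On average the 5 mitosis genes differed from BAPN by between -1.22 for Birc5 and -0.17 for Top2a, and the sign turned after rescaling to TPM for Ccnb2 (0.44) and Top2a (0.39).

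Tipin went the other way. It had 20.5 and 42.7 FPKM in T-5224 libraries, against 8.76 and 11.7 FPKM in BAPN libraries, and was the only one of the 10 genes that was higher in T-5224 replicate 2 than in replicate 1. Its difference was 1.46 (SE 0.43, 95% interval 0.43 to 2.50, limma adjusted p = 0.189). It was 0.93 with haemoglobin left out, 2.14 after TPM (limma adjusted p = 0.0324), 0.95 without T-5224 replicate 2 and 1.98 without T-5224 replicate 1. Pcna had 82.1 and 70.0 FPKM in T-5224 libraries, against 56.5 and 55.2 FPKM in BAPN libraries, a difference of 0.43 whose sign turned to -0.14 with haemoglobin left out of the scaling. These were the only genes whose groups did not overlap, 2 of 10 higher and 0 lower, where 34.2% and 12.8% of all tested genes showed those patterns. Of the 10 genes 0 passed limma and 1, Tipin, had an unadjusted p under 0.05, where 0.0308% and 18.3% of all genes did.

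Replicate 2 was lower than replicate 1 in 9 of the 10 genes. The median absolute difference of the 10 genes was 1.33 on the log2 scale, against 0.74 over all tested genes. In the other groups the median absolute difference of the 10 genes was 0.22 between the TPA libraries, 0.40 between the BAPN libraries and 0.72 between the normal libraries, against 0.21, 0.33 and 0.45 over all tested genes. Transcript length moved with the difference between the T-5224 libraries: over all genes the rank correlation of length with replicate 2 minus replicate 1 was -0.30. Genes within 10% of the length of Cdk1 had a median of -0.36, against -2.85 for Cdk1, and those within 10% of the length of Rrm2 had a median of 0.12, against -1.53 for Rrm2. The titles (2 and 3 weeks), the length trend and the marker levels of other tissues all differed between these libraries, and their parts cannot be told apart. The 9 genes that were lower in replicate 2 include Ccnb2 (-0.30) and Pcna (-0.23). Without replicate 2 the median difference of the 10 genes from BAPN was 0.60, and without replicate 1 it was -0.85, against -0.20 with both and 0.35 over all tested genes.

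**Figure D4:**
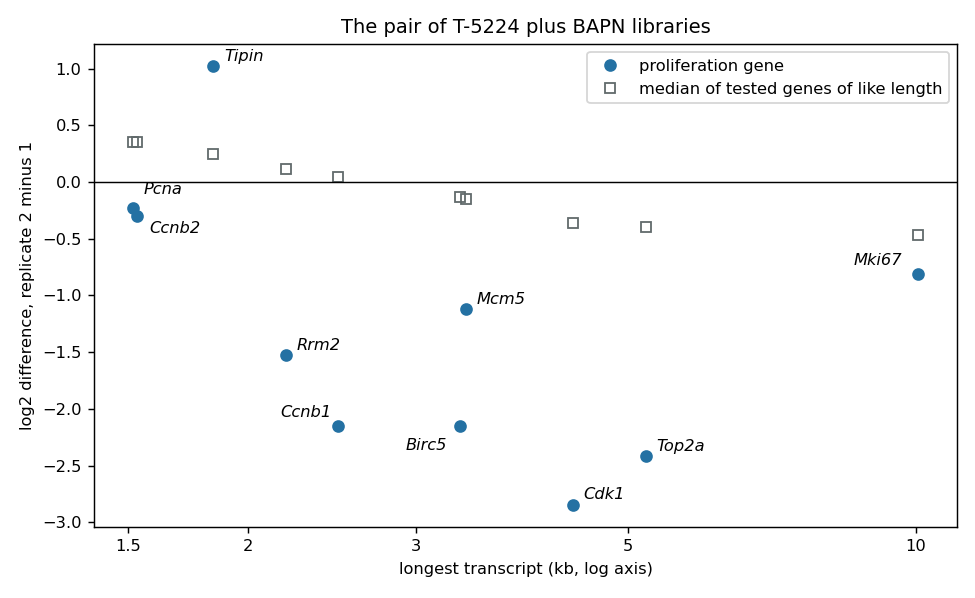
Difference between T-5224 replicate 2 and T-5224 replicate 1 in log2(FPKM + 1) for each of the 10 genes (circles) by the length of its longest transcript (logarithmic axis), beside the median of tested genes within 10% of the same length (squares). Of the 10 genes 9 are below 0, Cdk1 by 2.85, and Tipin is above it by 1.02.

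The coQ10 library had no replicate, and its spread was taken from the other groups. Ccnb2 had 2.83 FPKM in the coQ10 library, against 9.24 and 7.31 FPKM in BAPN libraries, and Birc5 had 4.87 FPKM, against 13.1 and 18.6 FPKM. Mki67 had 0.49 FPKM in the coQ10 library, against 1.42 and 4.02 FPKM in BAPN libraries. Ccnb2 differed by -1.27 (95% interval -2.51 to -0.03, limma adjusted p = 0.247), Birc5 by -1.50 (SE 0.93, limma adjusted p = 0.403) and Mki67 by -1.23 (limma adjusted p = 0.388). Top2a, at 4.13 FPKM, was above both BAPN libraries. The coQ10 library lay below both BAPN libraries for 6 genes and above both for 1, where 24.1% and 59.6% of all tested genes did so. Of the 10 genes 0 passed limma and 1 (Ccnb2) had an unadjusted p under 0.05, against 0.0154% and 19.8% of all genes.

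TPA and T-5224, which act on AP-1 in opposite directions, were compared directly. Tipin had 4.61 and 8.28 FPKM in TPA libraries, against 20.5 and 42.7 FPKM in T-5224 libraries, a difference of -2.09 (SE 0.43, 95% interval -3.12 to -1.05, limma adjusted p = 0.443). Ccnb2 differed by -0.95 (limma adjusted p = 0.469) and Pcna by -0.67 (limma adjusted p = 0.447), and that of Pcna turned to 0.02 with haemoglobin left out. These 3 genes had groups that did not overlap, with TPA lower, a pattern of 28% of all tested genes, and 0 were higher without overlap. Of the 10 genes 0 passed limma and 2 (Tipin and Pcna) had an unadjusted p under 0.05, against 0.0154% and 10.9% of all genes. The other 7 genes differed by between -0.19 and 0.29 across T-5224 libraries that lay far apart. Without T-5224 replicate 1 the difference of Tipin was -2.60, and without T-5224 replicate 2 it was -1.57.

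Other genes of the cell cycle were read from lists chosen with earlier results known. In BAPN against normal, the Myc proto-oncogene, a transcription factor that drives entry into the cycle, rose by 2.72 (SE 0.47, limma adjusted p = 0.0474). It had 45.7 and 39.3 FPKM in BAPN libraries, against 9.71 and 3.05 FPKM in normal libraries. Rbl2, which encodes the pocket protein p130 of the DREAM complex, fell by 1.32 (SE 0.25, limma adjusted p = 0.0490), with 6.97 and 7.98 FPKM in BAPN libraries, against 19.7 and 20.4 FPKM in normal libraries. Both lie close to the threshold. Under the alternatives run, Rbl2 was no longer called after median-of-ratios scaling (-0.78, limma adjusted p = 0.185), Myc stayed called there, and both were lost with haemoglobin left out (limma adjusted p = 0.0736 for Myc and 0.157 for Rbl2). Both were also lost without either normal, either BAPN or either TPA library, between 0.0644 and 0.246.

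Among the 22 tested other replication genes 0 passed limma in BAPN against normal, 16 were positive, 2 had an unadjusted p under 0.05 and their median was 0.30. Timeless, the partner of Tipin, had 10.2 and 7.29 FPKM in BAPN libraries, against 4.98 and 2.24 FPKM in normal libraries (limma adjusted p = 0.103). Chaf1b, a histone chaperone of the fork, differed by 1.50 (limma adjusted p = 0.0645). Among the 22 tested other mitosis genes 0 passed, 20 were positive, and their median was 0.71, against -0.51 over all genes. An unadjusted p under 0.05 was reached by 3 higher and 2 lower genes of the list, where 32.4% of all tested genes reached it. Cdc20, an activator of the anaphase-promoting complex, had 8.93 and 7.45 FPKM in BAPN libraries, against 2.40 and 2.48 FPKM in normal libraries (limma adjusted p = 0.0627). Ube2c, its ubiquitin-conjugating enzyme, had 53.0 and 52.4 FPKM in BAPN libraries, against 6.24 and 2.61 FPKM in normal libraries (limma adjusted p = 0.0898). The lower genes were Anln (anillin, of the cleavage furrow), which differed by -1.59 (limma adjusted p = 0.142), and Hjurp, the chaperone of centromeric histone CENP-A, with 3.15 and 4.00 FPKM in BAPN libraries, against 10.8 and 11.3 FPKM in normal libraries (limma adjusted p = 0.143).

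Of the 7 genes of the G1 list, which holds D-type cyclins, G1 kinases and Myc, Myc alone was called. Ccnd2, cyclin D2, had 5.07 and 6.37 FPKM in BAPN libraries, against 31.5 and 40.2 FPKM in normal libraries (limma adjusted p = 0.0664). Of 6 tested CDK inhibitors 0 passed and 4 were negative. An unadjusted p under 0.05 in limma was reached by 1 higher and 1 lower gene, near the 32.4% of all tested genes. Cdkn2d had 28.6 and 18.1 FPKM in BAPN libraries, against 7.35 and 12.5 FPKM in normal libraries (limma adjusted p = 0.130). Cdkn1c had 16.8 and 9.23 FPKM in BAPN libraries, against 42.4 and 34.2 FPKM in normal libraries (limma adjusted p = 0.134). Cdkn1a, the p53 target p21, averaged 176 ± 43.9 FPKM in BAPN libraries and 93.3 ± 2.35 FPKM in normal libraries (SD, n = 2 each), and had 23.4 and 405 FPKM in the T-5224 libraries. Of the 3 pocket protein genes Rbl2 alone passed.

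None of these list genes passed in the other 4 comparisons. Myc had 18.6 and 22.5 FPKM in TPA libraries, 6.56 and 8.92 FPKM in T-5224 libraries and 9.77 FPKM in the coQ10 library, against 45.7 and 39.3 FPKM in BAPN libraries. Rbl2 had 15.1 and 12.7 FPKM in TPA libraries, 14.8 and 16.3 FPKM in T-5224 libraries and 17.1 FPKM in the coQ10 library, against 6.97 and 7.98 FPKM in BAPN libraries. All 5 of these other libraries were below the BAPN libraries for Myc and above them for Rbl2. Of all tested genes 21.2% were below both BAPN libraries with TPA, 12.8% with T-5224 and 24.1% with coQ10, and 41.4%, 34.2% and 59.6% were above both. Both genes are described here because they were called with the same BAPN libraries, which favours such a pattern. Timeless had 3.38 and 3.75 FPKM in TPA libraries, 2.48 and 2.21 FPKM in T-5224 libraries and 1.81 FPKM in the coQ10 library, against 10.2 and 7.29 FPKM in BAPN libraries, and its smallest limma adjusted p in these 3 comparisons was 0.162, with T-5224. Ube2c had 87.1 and 80.1 FPKM in TPA libraries, 106 and 7.30 FPKM in T-5224 libraries and 20.9 FPKM in the coQ10 library, against 53.0 and 52.4 FPKM in BAPN libraries, so it was split between the T-5224 libraries as Cdk1 and Top2a were. These comparisons share the BAPN libraries. The medians of the replication and mitosis lists were -0.13 and -0.20 with TPA, 0.26 and -0.19 with T-5224 and -0.10 and -0.22 with coQ10, beside medians over all tested genes of 0.18, 0.35 and 0.39.

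**Figure D5:**
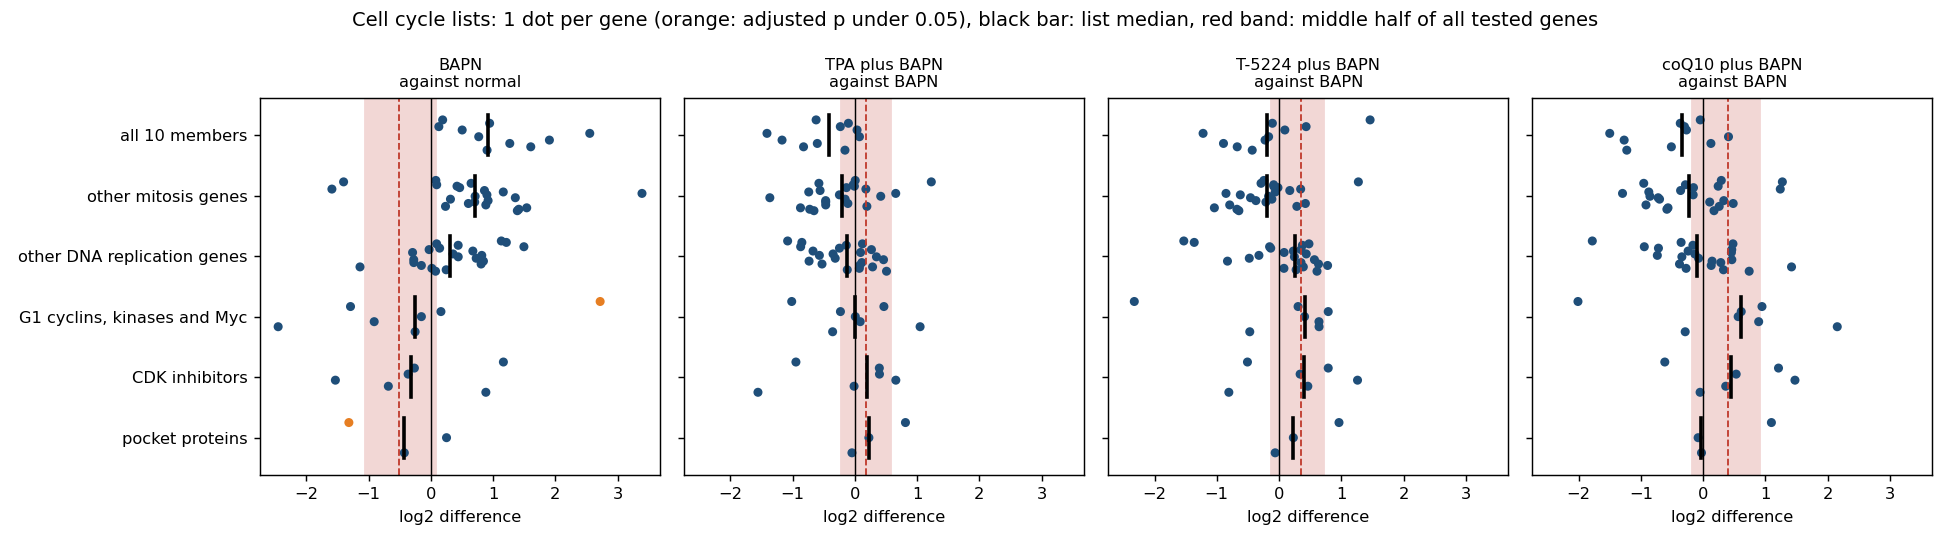
Difference in log2(FPKM + 1) for each tested gene of the 5 cell cycle lists and for the 10 genes, in 4 comparisons; each dot is 1 gene, orange dots passed limma at an adjusted p of 0.05, black bars are list medians and the red band spans the middle 50% of all tested genes. Myc (2.72) and Rbl2 (-1.32) in BAPN against normal are the only orange dots.

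The genes whose levels across the 9 libraries were most like the mean of the 10 were sought among 12987 other tested symbols. The 10 closest had Pearson r between 0.90 and 0.97 on the log2 scale. They include Cdca3, Ckap2, Cep55, Nuf2, Kif22, Knstrn and Pbk, genes of mitosis, and 2810417H13Rik, which RefSeq names Pclaf, a factor that binds Pcna. LOC100038947 (Sirpb1c in RefSeq) and Arg1 were also among them. Arg1, an enzyme of arginine breakdown found in liver and in some macrophages and neutrophils, had 2.68 and 4.27 FPKM in TPA libraries, 58.6 and 1.46 FPKM in T-5224 libraries, 0.89 FPKM in the coQ10 library and 33.1 and 24.1 FPKM in BAPN libraries, and was not listed in either normal library. These are descriptions over 9 libraries.

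Ccnb1, Ccnb2 and Pcna have pseudogene copies in the annotation. No listed symbol had a pseudogene name built on those of the genes, and copies under other names were not searched for. The levels of Ccnb1, Ccnb2 and Pcna are therefore uncertain, because reads could be shared with the copies. In GRCm38.p6 the mitosis genes span chr10:69335146-69352912 (Cdk1), chr13:100778739-100786486 (Ccnb1), chr9:70407689-70421554 (Ccnb2), chr11:98992947-99024199 (Top2a) and chr11:117849237-117855743 (Birc5). The replication genes span chr8:75109468-75128439 (Mcm5), chr2:132249286-132253180 (Pcna), chr12:24708254-24714146 (Rrm2) and chr9:64281491-64305422 (Tipin). Mki67 spans chr7:135689784-135716450, so that Ccnb2 shares a chromosome with Tipin and Top2a with Birc5. The tables give 1 value per gene, so exons and isoforms cannot be told apart.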

How the data were processed

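RNA of 9 mouse aorta libraries was extracted with Trizol and made into libraries with a TruSeq RNA kit, per the labels' protocols. Each library has 1 table of FPKM by gene symbol as deposited, given to 2 decimals and leaving out genes at 0. Build mm10 is named per the submitters' processing notes. The aligner, counting tool and annotation are not given in the sources read. Depth is unknown. The spacing of low values put the FPKM worth of 1 read, which runs inversely to depth, at 0.93 to 1.11 times that of BAPN replicate 2 in 4 libraries and could not be resolved for 4.

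Values were transformed to log2(FPKM + 1), and the 12997 symbols with a mean FPKM of at least 1 were fitted in limma 3.58.1 (R 4.3.3) with an intensity trend, 5 groups and 4 residual degrees of freedom. P-values were two-sided and Benjamini-Hochberg adjusted over all tested genes of a comparison, at a threshold of 0.05. The fit was tested on simulated data in which all genes and groups had the same spread. That test does not bear on the unequal spread of the library pairs here. Other scalings, offsets, filters, fits and left-out libraries were tried. The library with the label "co110" was read as coQ10. Marker lists held genes of blood cells, vessel wall and neighbouring tissues. The text names the 10 genes, the leading list genes by p and the 10 symbols most like the mean of the 10. Members and lists were chosen with earlier results of these data known. Figures used python 3.11.15 and matplotlib 3.10.9.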

Additional observations from a re-analysis of the deposited data

How the results depend on the processing

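The fit as reported called 0 of the 10 genes in each comparison. In BAPN against normal 1 was called after median-of-ratios scaling, beside 227 of all 12978 tested genes. After rescaling to TPM 2 were called (Pcna and Tipin, both lower), beside 9703 of all 13100 tested genes, 9557 of them lower. With normal replicate 1 and T-5224 replicate 2 both left out (chosen after seeing the data), the median of the 10 genes was 1.42. It was 0.50 to 1.42 with single libraries left out. In TPA against BAPN 1 was called in a fit of those groups only, beside 972 of all 12997 tested genes. In T-5224 against BAPN 2 were called after TPM, beside 3127 of all 13100 tested genes. In coQ10 against BAPN, with 1 coQ10 library, the difference of Pcna after TPM was 1.15. In TPA against T-5224 0 were called under any other scaling, offset, filter or fit.

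Genes called over all tested moved more. In BAPN against normal they numbered 424, and 152 with an offset of 0.1, 53 with no filter, 227 after median-of-ratios, 9703 after TPM, 23 with haemoglobin left out, 37 in the groups alone, 197 with no trend, 8 with the replicate block, 4032 with both libraries left out and 0 to 3670 with single libraries left out. In TPA against BAPN they numbered 5, and in the same order of settings 0 with the offset, 9 with no filter, 2 after TPM, 3 with haemoglobin left out, 972 in the groups alone, 2 with the replicate block, 1023 with both left out and 0 to 9 with single libraries left out. In T-5224 against BAPN they numbered 4, and 2 with the offset, 2 with no filter, 35 after median-of-ratios, 3127 after TPM, 0 in the groups alone, 0 with the replicate block, 2245 with both left out and 0 to 85 with single libraries left out. In coQ10 against BAPN they numbered 2, and 1 with the offset, 7 with no filter, 10 after median-of-ratios, 7320 after TPM, 0 in the groups alone, 2967 with both left out and 0 to 104 with single libraries left out. In TPA against T-5224 they numbered 2, and 0 with the offset, 8 with no filter, 0 in the groups alone, 584 with both left out and 0 to 666 with single libraries left out. Where limma called 0, between 397 and 3705 genes had an unadjusted p under 0.05.

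The median of the 10 genes in BAPN against normal was 1.46 with the offset and -0.14 after TPM, against 0.92. In T-5224 against BAPN it was 0.42 after TPM, 0.60 with both left out and -0.85 to 0.60 with single libraries left out. In coQ10 against BAPN it was 0.85 after TPM, and in TPA against T-5224 it was 0.47 with haemoglobin left out, -0.88 with both left out and -0.88 to 0.72 with single libraries left out.

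Signs turned after TPM for Top2a (-0.28), Mcm5 (-0.80), Pcna (-1.51), Rrm2 (-0.28) and Tipin (-1.32) in BAPN against normal, for Rrm2 (0.063) in TPA against BAPN, and for Ccnb2 (0.44), Top2a (0.39), Rrm2 (0.50) and Mki67 (0.083) in T-5224 against BAPN. They also turned after TPM for Cdk1 (0.53), Mcm5 (0.91), Pcna (1.15), Rrm2 (0.79) and Tipin (1.29) in coQ10 against BAPN, and for Ccnb1 (-0.069), Top2a (-0.18), Rrm2 (-0.43) and Mki67 (-0.088) in TPA against T-5224. After median-of-ratios they turned for Top2a (-0.082) and Mcm5 (-0.14) in TPA against BAPN, Mcm5 (-0.21) in T-5224 against BAPN, Ccnb1 (-0.24) in coQ10 against BAPN and Mcm5 (0.077) in TPA against T-5224. With haemoglobin left out they turned for Mcm5 (-0.39) and Pcna (-0.14) in T-5224 against BAPN, Ccnb1 (-0.078) in coQ10 against BAPN, and Cdk1 (0.21), Mcm5 (0.53), Birc5 (0.40) and Pcna (0.017) in TPA against T-5224, where the offset gave Cdk1 0.87. With both libraries left out they turned for Pcna (-0.036) in BAPN against normal, for Top2a (1.04), Rrm2 (0.66), Cdk1 (0.75) and Ccnb1 (0.19) in T-5224 against BAPN, and for Ccnb1 (-0.79), Top2a (-0.97), Rrm2 (-0.76) and Mki67 (-0.14) in TPA against T-5224.

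With single libraries left out, the ranges that crossed 0 were -0.036 to 0.29 for Pcna in BAPN against normal, and in TPA against BAPN -0.044 to 0.19 for Top2a, -0.077 to 0.15 for Mcm5, -0.48 to 0.27 for Rrm2 and -0.69 to 0.37 for Mki67. In T-5224 against BAPN they were -0.47 to 0.65 for Mcm5, -1.38 to 1.04 for Top2a, -0.87 to 0.66 for Rrm2, -0.96 to 0.10 for Mki67, -2.09 to 0.75 for Cdk1 and -1.97 to 0.19 for Ccnb1. In coQ10 against BAPN they were -0.082 to 0.33 for Ccnb1, -0.74 to 0.0067 for Rrm2 and -0.23 to 0.14 for Tipin. In TPA against T-5224 they were -1.58 to 1.27 for Cdk1, -0.62 to 0.50 for Mcm5, -0.79 to 1.36 for Ccnb1, -0.97 to 1.45 for Top2a, -0.76 to 0.77 for Rrm2, -0.14 to 0.68 for Mki67 and -1.27 to 0.88 for Birc5.

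In BAPN against normal the lowest of these counts over all genes came without BAPN replicate 1 and the highest without T-5224 replicate 2. Myc and Rbl2 also missed the threshold with the offset (limma adjusted p = 0.0536 for both), with no filter (0.0634 and 0.0626), in the groups alone (0.0649 and 0.0647) and with no trend (0.0522 and 0.0572).

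Replicate numbers did not pair the libraries: deviations of same-numbered libraries correlated between -0.44 and 0.18 across group pairs. The replicate block called 0 of the 10 genes, and Myc and Rbl2 missed the threshold under it (limma adjusted p = 0.0934 and 0.0950). Where leaving out a library left a group with 1, its spread was taken to be that of the other groups. The cause of these shifts was not tested, and the unknown depth limits the values near 0.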

Other observations

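Marker lists that the comparisons above do not quote are given here as the lowest and highest mean log2(FPKM + 1) over the 9 libraries. Macrophage markers ran from 3.36 in BAPN replicate 2 to 5.07 in TPA replicate 1, neutrophil markers from 1.39 in normal replicate 2 to 4.51 in TPA replicate 1, and neutrophil precursor markers from 0.00 to 0.82. Smooth muscle markers ran from 5.10 in BAPN replicate 2 to 9.51 in normal replicate 2, endothelial markers from 4.25 to 6.22 and fibroblast markers from 5.54 to 8.06. Germinal centre markers did not exceed 0.82 and plasma cell markers 2.83. Skeletal muscle markers ran from 1.56 in T-5224 replicate 1 to 10.2 in TPA replicate 2, cardiac muscle markers from 2.15 to 10.6, airway epithelium markers from 1.15 to 8.85, squamous epithelium markers from 0.06 to 5.12, white adipocyte markers from 3.59 to 8.52 and brown adipocyte markers from 3.41 to 7.41.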
